A study of Mus musculus with 100 samples.

Results

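The expression of 9 genes whose products write or erase methylation of histone H3 lysine 4 (H3K4) was followed through the RNA libraries of a study of MLL3 and MLL4. The 9 were chosen by name, as H3K4 methyltransferases, partners and demethylases outside the MLL3/MLL4 complex. They are the methyltransferase genes Kmt2a, Kmt2b, Setd1a and Setd1b, the partner genes Men1 and Cxxc1, and the demethylase genes Kdm1a, Kdm5a and Kdm5b. Values were found for 7 of the 9 among 23109 gene-level entries. No transcript of the tables was matched to Kmt2a or Setd1b, which were not analysed here. Their transcripts may be among the 646 that no symbol was matched to, so the methyltransferase results rest on 2 of the 4 listed genes.

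Methylation of H3K4 is a mark of active chromatin, in which trimethylation is typical of promoters and monomethylation of enhancers. MLL3 and MLL4, encoded by Kmt2c and Kmt2d, are the main enzymes of enhancer monomethylation, while MLL1 (Kmt2a), MLL2 (Kmt2b) and the SETD1 enzymes act largely at promoters. LSD1 (Kdm1a) removes lower methylation states, and the KDM5 enzymes remove higher ones. In embryonic stem cells MLL2 is known for its action at bivalent promoters, and LSD1 for silencing stem cell enhancers when the cells differentiate.

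The 37 RNA libraries analysed, of 100 samples in the series, fall into 18 groups. A further RNA sample, of Mll3-/-;Mll4-/- cells at neural day 8, was not analysed here. Every cultured cell carries Mll3-/-, and flox cells (Mll3-/-;Mll4flox/flox) are the reference for KI cells (Mll3-/-;Mll4KI/KI), of which clones 27 and 48 are the replicates. The labels do not spell out KI. As background, the study's title concerns methyltransferase activity, and the KI alleles are knock-ins made to encode inactive enzyme. Embryonic stem cells (ESCs) in 2i and LIF were taken as day 0 of an embryoid body (EB) course, in which aggregates differentiated without LIF until days 4 and 10, with 1 flox and 2 KI libraries a day. A retinoic acid protocol gave progenitors of the neural lineage (day 8) and then neurons (day 16), each with 2 flox and 2 KI libraries. Trophectoderm (TE) cultures at day 6 came from ESCs with a doxycycline-inducible CDX2 transgene. Extraembryonic endoderm (ExEn) cultures at day 5 were made with retinoic acid and activin A. Both kinds had 2 flox and 2 KI libraries. Embryos were taken whole on 2 embryonic days, E8.5 or E9.5, with 3 per group, and were KI (Mll3flox/KI;Mll4flox/KI;Sox2-Cre) or control (Mll3flox/KI;Mll4flox/+;Sox2-Cre), so that both groups carry an Mll3 KI allele and Sox2-Cre, which deletes floxed alleles in the epiblast and its descendants. KI thus means clones that are 2 cell lines in culture and single embryos in vivo, and nothing in the labels says that flox replicates came from separate cultures. Tables held between 25419181 and 83946108 reads, and the lowest count among the 7 genes was 1264 reads, for Cxxc1 in the flox ESC library.

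Marker genes followed the labels with exceptions. The summed level of 17 endoderm markers was 6131 to 6248 CPM (counts scaled to a common library total) in flox ExEn cultures and 2651 to 2819 in KI. The 12 trophoblast markers summed to 3428 to 3505 CPM in flox TE and 6031 to 6399 in KI, but to as much as 3444 to 3463 CPM in flox ExEn, and Pou5f1, a pluripotency gene, stood at 221 CPM in both flox TE libraries. Xist and the Y-linked genes divided the 12 embryos into 3 with Y-linked reads (Kdm5d 31.1 to 38.2 CPM) and 9 without (at most 0.0789 CPM). KI embryos at E9.5 were all without, against 2 of 3 control embryos, and 1 embryo of each E8.5 group had them. In KI clone 48, Kdm5d stood at 0.604 to 2.32 CPM, against 20.7 to 44.8 CPM in clone 27. Flox libraries lay between the clones in each culture. Their Kdm5d level was 4.95 to 9.44 CPM in ESC, EB and neural libraries, 12.2 and 12.3 CPM in ExEn and 19.5 and 23.4 CPM in TE.

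On the deposited RPKM scale, which divides reads by transcript length, Kdm1a was the most abundant of the 7 genes in each of the 37 libraries (median 53.9 RPKM). Kdm5a was the lowest in 34 libraries (median 7.17 RPKM) and Kmt2b in the other 3. Levels of the remaining genes had medians of 28.8 RPKM for Kdm5b, 23.8 for Men1, 21.6 for Cxxc1, 20.6 for Setd1a and 16.6 for Kmt2b. All 7 were therefore detected in every culture and embryo.

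Each gene varied moderately across the 18 groups, by TMM-scaled CPM within a gene. Kdm5b, which encodes a KDM5 demethylase abundant in stem cells, ran from 584 CPM in the single flox ESC library to a mean of 159 CPM in E9.5 control embryos, a ratio of 3.67 that rests on that 1 library. The next group, KI ESCs, had a mean of 416 CPM. Kdm5a ran from a mean of 218 CPM in KI ExEn cultures to 64.4 CPM in KI neurons, a ratio of 3.39. Setd1a, the catalytic gene of a SETD1 complex, was highest in KI EBs at day 4 (mean 248 CPM) and lowest in KI neurons (80.1 CPM). The other ratios of highest to lowest group were 2.33 for Cxxc1, 2.24 for Kmt2b, 2.23 for Kdm1a and 2.12 for Men1. These ratios set libraries labelled polyA RNA (ESC, EB and neural) beside libraries labelled total RNA (the rest), and the part of that label in them was not tested. Groups next to each other in this order often could not be separated: of 17 neighbouring pairs per gene, between 9 (Setd1a and Cxxc1) and 12 (Kmt2b and Men1) had overlapping library values.

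**Figure D1:**
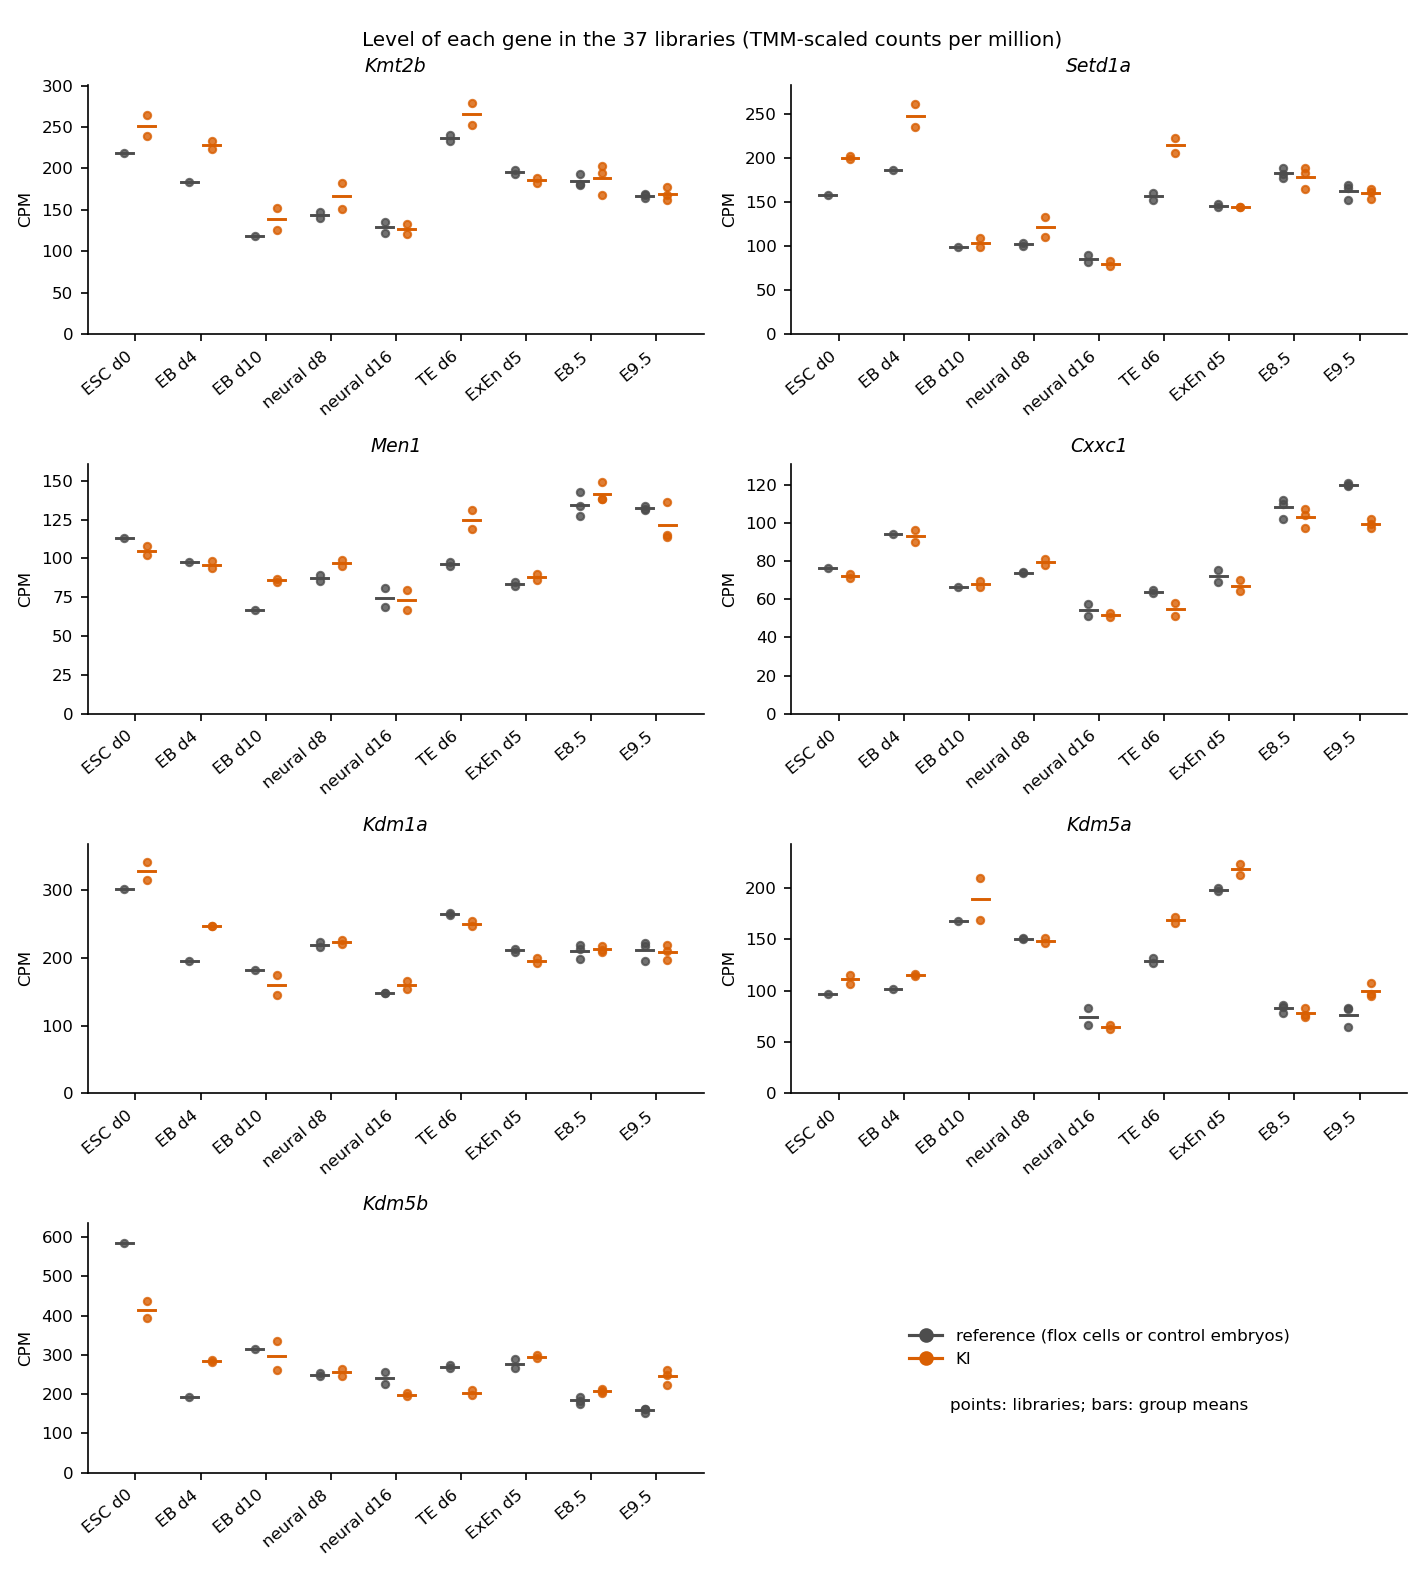
Level of the 7 genes in each library, as TMM-scaled CPM from 0 upwards, by culture or embryo stage. Points are libraries, bars are group means, grey is flox or control and orange is KI. Kdm5b reaches 584 CPM in the flox ESC library, and in TE cultures Setd1a is higher and Kdm5b lower in both KI libraries than in both flox libraries.

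The promoters of Setd1a and Kdm5b, the methyltransferase and the demethylase whose KI effects differed most between TE and ExEn cultures, are shown for orientation. Given are the 250 bases before the start of each gene (RefSeq, GRCm38.p6), 5′ to 3′ on the gene's strand, with CG dinucleotides, the unit bound by the CXXC domain of Cxxc1 protein when unmethylated, in capitals. Setd1a lies on chromosome 7 (chr7:127777139-127777388, plus strand) and Kdm5b on chromosome 1 (chr1:134559928-134560177, plus strand).
Setd1a: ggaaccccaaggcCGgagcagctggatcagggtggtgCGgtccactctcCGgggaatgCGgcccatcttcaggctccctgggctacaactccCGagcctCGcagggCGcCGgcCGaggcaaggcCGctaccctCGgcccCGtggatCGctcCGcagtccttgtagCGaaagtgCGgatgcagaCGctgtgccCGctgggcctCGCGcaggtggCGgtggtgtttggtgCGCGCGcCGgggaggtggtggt
Kdm5b: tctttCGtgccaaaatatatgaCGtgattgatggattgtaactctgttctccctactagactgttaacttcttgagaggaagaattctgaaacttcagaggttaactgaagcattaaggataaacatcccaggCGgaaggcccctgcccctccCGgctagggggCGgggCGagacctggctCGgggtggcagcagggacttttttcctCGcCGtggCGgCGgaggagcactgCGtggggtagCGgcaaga
The Setd1a stretch holds 25 CG and that of Kdm5b 13. Of 32851 RefSeq promoter stretches of this length, 10.7% hold at least 25 and 31.5% at least 13. The median is 6, and 92.1% hold at least 1 CG, which reads the same on both strands. This is a description of the sequence, and no binding or methylation was measured here.

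Whether the other writers and erasers of the mark changed in KI samples was compared in 7 KI-against-reference tests, which give 49 estimates for the 7 genes. A gene is termed called where edgeR's quasi-likelihood test gave an adjusted p under 0.05, with Benjamini-Hochberg adjustment over all genes. Of the 49 estimates 10 were called (20.4%), 6 higher and 4 lower, where 26.8% of the estimates over all genes and the same 7 tests were called. The methyltransferase genes Kmt2b and Setd1a gave 14 estimates, of which 2 were called, both higher and both in TE cultures (14.3%). For the partners Men1 and Cxxc1, 1 of 14 estimates was called higher and 2 lower (21.4% called). The 3 demethylase genes gave 21 estimates, with 3 called higher and 2 lower (23.8% called). None of these shares was above the share over all genes. Sizes were small: the largest called value was a log2 fold change of 0.63, for Kdm5b at E9.5.

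**Figure D2:**
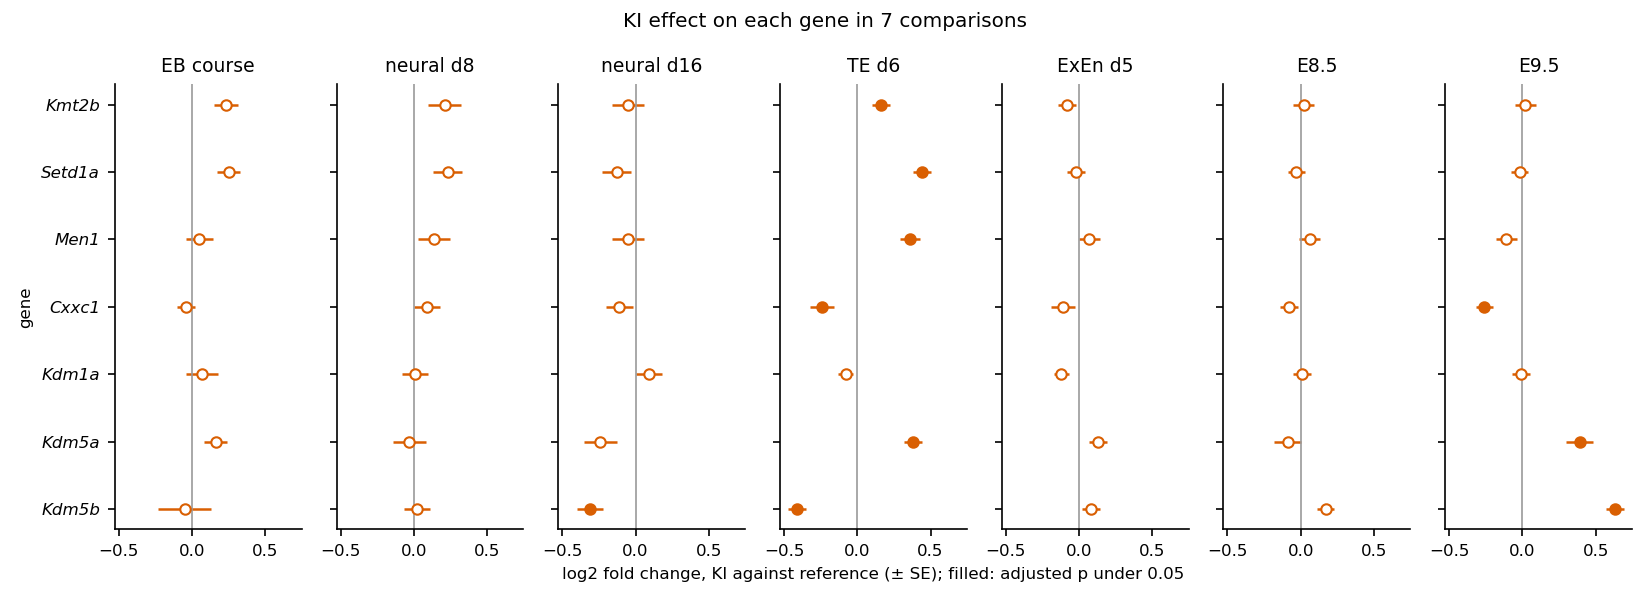
Log2 fold change of KI against the reference (points, with SE as bars) for the 7 genes in 7 comparisons. Filled points have an adjusted p under 0.05, and they number 6 in TE cultures, 3 at E9.5 and 1 in neurons at day 16.

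In TE cultures 6 of the 7 genes were called, where 50.9% of the 15532 genes tested were. Higher in KI were 4 of them and lower 2, and both directions included erasers.

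Setd1a stood at 161 and 153 CPM in flox TE and at 223 and 206 CPM in KI clones 27 and 48. Both KI libraries lay above both flox libraries, with a log2 fold change of 0.44 ± 0.06 (SE, adjusted p = 2.38e-05). Kmt2b was at 241 and 233 CPM in flox and at 279 and 253 CPM in KI. That difference was small (0.16 ± 0.06, adjusted p = 0.0314) and was lost without flox replicate 1 (adjusted p = 0.128), flox replicate 2 (0.32) or clone 27 (0.347), under DESeq2 (0.0739), with no filter on low counts (0.0801) and with reads summed over transcripts (0.0726). Men1 encodes menin, a subunit of the MLL1 and MLL2 complexes. Its level was 97.9 and 94.8 CPM in flox and 131 and 119 CPM in KI (0.36 ± 0.07, adjusted p = 0.000383). Cxxc1, the CpG-binding subunit of SETD1 complexes, was at 63.2 and 64.6 CPM in flox and lower in KI, at 58.1 and 51.1 CPM. This change of -0.24 ± 0.08 (adjusted p = 0.0278) was no longer past the threshold without flox replicate 1 (0.0587), flox replicate 2 (0.0841) or clone 48 (0.155).

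The KDM5 genes moved in opposite directions in TE. Kdm5a was at 127 and 132 CPM in flox and at 172 and 166 CPM in KI, a rise of 0.38 ± 0.06 (adjusted p = 5.9e-05). Kdm5b fell from 273 and 266 CPM to 198 and 210 CPM (-0.41 ± 0.06, adjusted p = 2.38e-05). Neither set of libraries overlapped. Kdm1a had 266 and 264 CPM in flox and 255 and 247 CPM in KI, a difference of -0.08 ± 0.05 (95% interval -0.19 to 0.02, adjusted p = 0.18).

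The TE cultures of the 2 genotypes also differed in markers. Pluripotency markers were lower in KI for 10 of 12 genes (Pou5f1 221 CPM in both flox libraries and 64.6 to 112 CPM in KI), trophoblast markers were higher for 9 of 12 and lower for 2, and cell cycle genes were higher for 2 and lower for 8 of 12. Cdx2 read 26.9 to 29.7 CPM in flox and 104 to 111 CPM in KI, and reads of the transgene and the gene may not be separable. The part of these in the changes above was not tested. In bulk RNA, fewer cells of a type and less RNA per cell cannot be told apart.

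In ExEn cultures none of the 7 genes was called, where edgeR called 35.5% of 15532 genes. An unadjusted p under 0.05 was found for 2 of the 7, and DESeq2 called 0. Setd1a was at 148 and 144 CPM in flox and at 145 CPM in both KI libraries, a difference of -0.02 ± 0.06 (95% interval -0.15 to 0.11). Kdm5b was at 289 and 267 CPM in flox and at 299 and 291 CPM in KI (0.08 ± 0.06, adjusted p = 0.299). Kdm5a (0.13 ± 0.06, adjusted p = 0.084) and Kdm1a (-0.12 ± 0.05, adjusted p = 0.0857) came closest to the threshold. In the same cultures all 17 endoderm markers were called lower in KI and 9 of 12 cell cycle genes were lower. Trophoblast markers summed to 3444 to 3463 CPM in flox and 4437 to 5314 CPM in KI. The part of these in the results was not tested.

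The difference between these KI effects was tested as an interaction of genotype and lineage. It was called for 5 of the 7 genes, where 35.3% of all genes were. The KI effect was higher in TE than in ExEn cultures for Setd1a by 0.46 ± 0.08 (adjusted p = 0.000676), for Men1 by 0.29 ± 0.10 (0.0271), for Kdm5a by 0.25 ± 0.08 (0.0246) and for Kmt2b by 0.24 ± 0.08 (0.0345). For Kdm5b it was lower (-0.49 ± 0.08, adjusted p = 0.000235). The differences of Setd1a and Kdm5b stayed past the threshold whichever library was left out (highest adjusted p 0.0129 and 0.00294). Those of Kmt2b, Men1 and Kdm5a were lost in turn without flox TE replicate 1 or 2, clone 27 in TE, flox ExEn replicate 1 or 2, or clone 48 in ExEn, with adjusted p from 0.0527 to 0.205. Kmt2b was also lost without clone 27 in ExEn (0.0614). Under DESeq2 the adjusted p was 0.0577 for Kmt2b and 0.0505 for Men1, and with no filter on low counts it was 0.0553 for Kmt2b and 0.0533 for Kdm5a. Kmt2b was lost too with reads summed over transcripts (0.0625), with the length trend removed (0.0797) and without the 100 most abundant genes (0.0563).

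At E8.5 none of the 7 genes was called, where edgeR called 5.46% of 15436 genes. An unadjusted p under 0.05 was found for 1 of the 7, and DESeq2 called 0. Kdm5b came closest. It was at 183, 194 and 175 CPM in control embryos and at 203, 213 and 207 CPM in KI, groups that did not overlap, with a log2 fold change of 0.17 ± 0.06 (95% interval 0.04 to 0.30, adjusted p = 0.138). Setd1a gave -0.03 ± 0.06 (95% interval -0.16 to 0.10) and Kmt2b 0.02 ± 0.07 (-0.12 to 0.16).

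At E9.5, 3 of the 7 genes were called, where 29.5% of all genes were. They were the demethylase genes Kdm5b and Kdm5a, both higher, and Cxxc1, lower. Kdm5b was at 163, 161 and 153 CPM in control embryos and at 224, 250 and 261 CPM in KI, with no overlap (0.63 ± 0.06, adjusted p = 8.55e-07). Kdm5a was at 81.7, 83.5 and 64.6 CPM in controls and at 96.9, 108 and 95.3 CPM in KI (0.39 ± 0.09, adjusted p = 0.00213). The libraries of these groups did not overlap. Cxxc1 was at 119, 121 and 120 CPM in controls and at 102, 97.2 and 99.2 CPM in KI (-0.26 ± 0.06, adjusted p = 0.00277). The methyltransferase genes gave -0.02 ± 0.06 (Setd1a, 95% interval -0.15 to 0.11) and 0.02 ± 0.07 (Kmt2b, -0.12 to 0.16). Men1 gave -0.11 ± 0.07 (adjusted p = 0.242), and it was called lower without KI replicate 3 (-0.20, adjusted p = 0.0358).

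The 3 called genes kept their calls with each embryo left out. Without control replicate 2, the only E9.5 embryo with Y-linked reads, the values were 0.63 for Kdm5b, 0.45 for Kdm5a and -0.27 for Cxxc1 (adjusted p 9.29e-06, 0.00218 and 0.00926). Heart markers were higher in KI embryos at E9.5 for 9 of 10 genes, neuron markers lower for 9 of 12, neural progenitor markers lower for 9 of 11 and cell cycle genes lower for 7 of 12. The summed level of 10 blood markers was 4575 to 12313 CPM in controls and 874 to 4346 CPM in KI, with 2 of 10 genes called lower. Trophoblast markers summed to 234 to 452 CPM in controls and 674 to 706 CPM in KI, with 6 of 12 called higher. At E8.5 the blood sums were 927 to 1922 CPM in controls and 240 to 322 CPM in KI, and those of trophoblast markers 672 to 796 and 1021 to 1228 CPM. The part of this in the result was not tested.

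Between E9.5 and E8.5 the KI effect differed for 2 of the 7 genes, where 6.63% of all genes did. Kdm5b gave a difference of 0.46 ± 0.09 (adjusted p = 0.00409), which was past the threshold with any embryo left out (at most 0.0147). Kdm5a gave 0.48 ± 0.12 (adjusted p = 0.0239). It was lost without E8.5 control replicate 1 (0.0523) or 3 (0.0627), E8.5 KI replicate 2 (0.0589) or 3 (0.0542), or E9.5 KI replicate 2 (0.0792), and with the trend on transcript length removed (0.0533).

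In neural progenitors at day 8 none of the 7 genes was called, where edgeR called 19.5% of 16439 genes. The unadjusted p was under 0.05 for 1 of the 7, and DESeq2 called 0. Setd1a stood at 104 and 100 CPM in flox and at 133 and 110 CPM in KI (0.23 ± 0.10, 95% interval 0.01 to 0.46, adjusted p = 0.156). Kmt2b gave 0.21 ± 0.11 (adjusted p = 0.238). Over all alternatives the value ran from 0.09 to 0.37 for Setd1a and from 0.06 to 0.34 for Kmt2b. The demethylase genes Kdm1a, Kdm5a and Kdm5b gave 0.01, -0.03 and 0.02.

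In neurons at day 16, 1 of the 7 genes was called, where 46.9% of all genes were. Kdm5b was at 257 and 226 CPM in flox and at 196 and 202 CPM in KI (-0.31 ± 0.09, adjusted p = 0.0183). The call was lost without flox replicate 1 (-0.21, 0.0848) or clone 27 (-0.28, 0.0745). Kdm5a was at 82.9 and 66.3 CPM in flox and at 66.3 and 62.5 CPM in KI (-0.24 ± 0.11, adjusted p = 0.085). It was called with the length trend removed (-0.28, adjusted p = 0.0347). Over all alternatives its value ran from -0.39, without flox replicate 2, to -0.07. Setd1a (-0.13 ± 0.10) and Kmt2b (-0.05 ± 0.11) were not called. All 12 neuron markers were higher in these KI libraries and 8 of 12 cell cycle genes lower. The KI effects at day 16 and day 8 differed for none of the 7 genes, where edgeR called 33.2% of all genes. Setd1a (-0.36 ± 0.15, adjusted p = 0.0816) and Kdm5b (-0.33 ± 0.13, 0.0803) were closest, with an unadjusted p under 0.05 for these 2 alone, and DESeq2 called both (0.0448 and 0.0323). Kdm5b was also called with median-of-ratios scaling (0.0498), with the length trend removed (0.043) and without flox day 16 replicate 2 (-0.41, 0.0272). Over all alternatives the difference ran from -0.41 to -0.23 for Kdm5b. For Kdm5a (-0.21 ± 0.15) it ran from -0.36, without that replicate, to -0.04. For Setd1a it ran from -0.49, without clone 48 at day 8, to -0.22.

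In the EB course the genotype effect averaged over days 0, 4 and 10 was called for none of the 7 genes, where edgeR called 0.73% of 16567 genes. The unadjusted p was under 0.05 for 2 of the 7, and DESeq2 called 0. Setd1a (0.25 ± 0.08, adjusted p = 0.204) and Kmt2b (0.23 ± 0.08, 0.22) had the largest values. With 1 flox library a day, single days had no test. A 2-fold difference of both clones from flox in 1 direction was reached by none of the 7 genes at any day, against 7.85% of genes at day 0, 5.71% at day 4 and 7.35% at day 10.

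Smaller differences in the course were as follows. At day 0, Setd1a was at 158 CPM in flox and 202 and 199 CPM in the KI clones, and at day 4 at 187 against 261 and 235 CPM. By day 10 it was at 98.7 against 109 and 99 CPM, so flox and clone 48 were almost level. Kmt2b was higher in both clones on each day, at 219 against 239 and 264 CPM, 184 against 233 and 224 CPM, and 119 against 152 and 126 CPM. Kdm5b changed order: it was at 584 CPM in flox ESCs and 394 and 437 CPM in KI, at 193 CPM in flox EBs of day 4 and 282 and 286 CPM in KI, and at 316 CPM against 335 and 261 CPM at day 10. Both clones stood above flox for 4, 5 and 5 of the genes on days 0, 4 and 10, and below it for 3, 0 and 1. Over all genes with at least 1 CPM, both clones lay on 1 side of flox in 88.1%, 86.4% and 73.3%. Summed marker levels differed too. Pluripotency genes were at 9132 CPM in flox and 6891 to 7385 CPM in KI at day 0. At day 4 they were at 1035 against 1710 to 1784 CPM, and trophoblast genes at 2263 against 864 to 926 CPM. At day 10 heart genes were at 2603 against 266 to 378 CPM, and endoderm genes at 1951 against 4592 to 4681 CPM. The part of these in the differences was not tested.

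**Figure D3:**
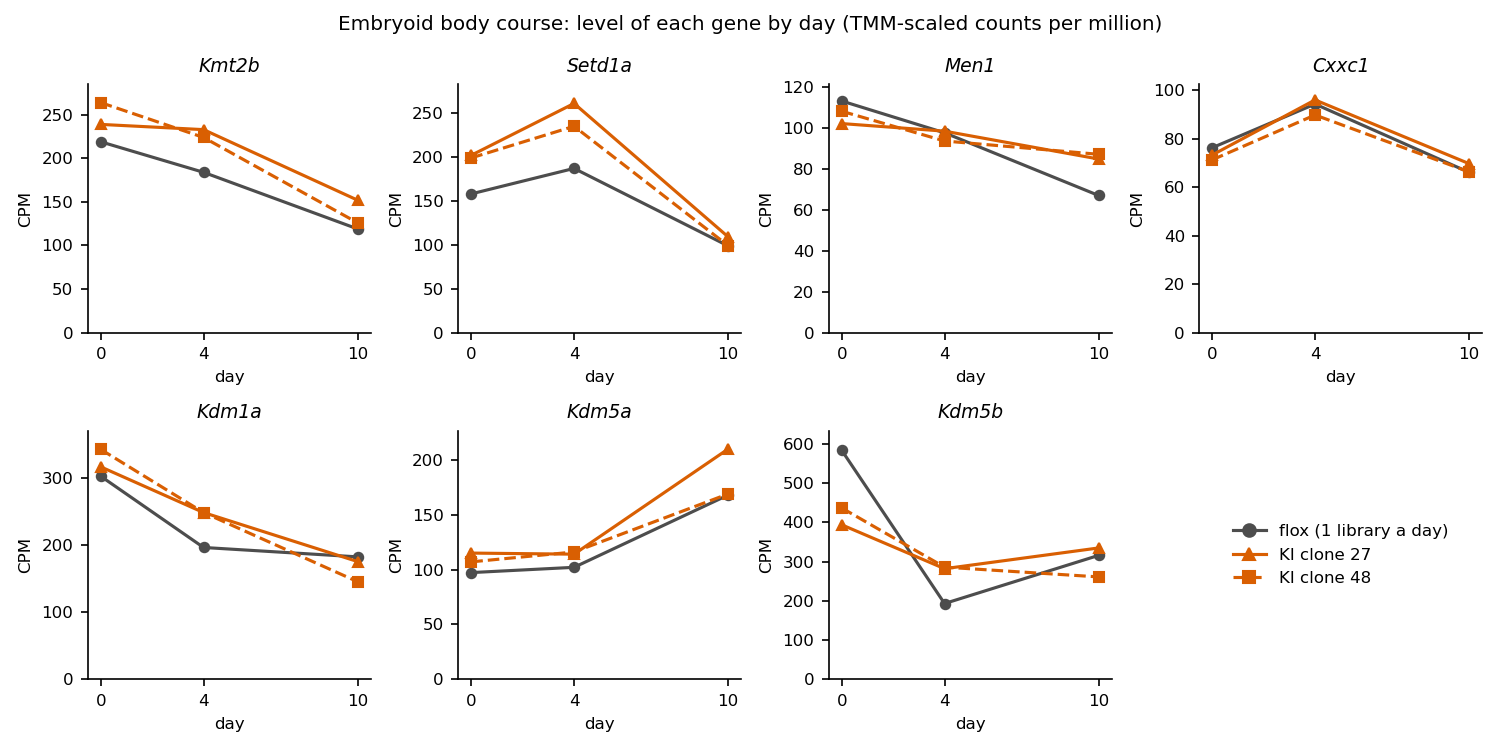
Level of the 7 genes by day of the EB course, as TMM-scaled CPM, in the single flox library (grey) and in KI clones 27 and 48 (orange). Setd1a rises from day 0 to day 4 and then falls in all 3 lines, and Kdm5b in flox drops from 584 to 193 CPM between days 0 and 4.

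In KI cells of the course, where the 2 clones allow a test of days, 4 of the 7 genes were called between ESCs and day 4 (50.3% of all genes). Setd1a rose by 0.32 ± 0.09 (adjusted p = 0.0178) and Cxxc1 by 0.37 ± 0.07 (0.00407). Kdm1a (-0.40 ± 0.10, adjusted p = 0.013) and Kdm5b (-0.54 ± 0.12, adjusted p = 0.00773) fell. None of these 4 calls was left without clone 27 at day 4, 1 without clone 48 at day 0 and 2 without clone 48 at day 4. With the trend on transcript length removed, the value of Setd1a was 0.15 (adjusted p = 0.137) and was not called, and Kmt2b was called lower (-0.36, adjusted p = 0.0191). Between ESCs and day 4 the summed level of pluripotency genes went from 6891 to 7385 CPM to 1710 to 1784 CPM (11 of 12 lower). Mesoderm genes went from 15.6 to 30.8 CPM to 435 to 473 CPM (8 of 8 higher), and trophoblast genes from 163 to 166 CPM to 864 to 926 CPM. The part of these in the changes was not tested. From day 4 to day 10, 5 of the 7 were called (73.3% of all genes). Setd1a (-1.27 ± 0.09), Kmt2b (-0.73 ± 0.11), Kdm1a (-0.64 ± 0.10) and Cxxc1 (-0.46 ± 0.07) fell, with adjusted p of at most 0.000776. Kdm5a rose by 0.71 ± 0.11 (0.000686), from 114 and 116 CPM to 210 and 169 CPM, and by 0.42 (0.00393) with the length trend removed. In the same libraries cell cycle genes went from 4498 to 4637 CPM at day 4 to 1738 to 1859 CPM at day 10 in summed level (12 of 12 lower). Pluripotency genes went from 1710 to 1784 CPM to 248 to 394 CPM (9 of 12 lower), and endoderm genes from 222 to 284 CPM to 4592 to 4681 CPM (17 of 17 higher). The part of these in the changes was not tested.

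From neural day 8 to day 16, 5 of the 7 genes fell in flox cells (77.1% of all genes were called) and 7 of 7 in KI cells (79.9%). Kdm5a, the member with the longest transcript, fell most: from 151 and 150 CPM to 82.9 and 66.3 CPM in flox (-1.07 ± 0.11, adjusted p = 1.57e-06) and from 151 and 147 CPM to 66.3 and 62.5 CPM in KI (-1.28 ± 0.11, 2.33e-07). Kdm1a also fell, with -0.62 ± 0.09 in flox and -0.55 ± 0.09 in KI. Setd1a fell too, with -0.31 ± 0.10 in flox and -0.67 ± 0.11 in KI, and the test of that difference is the one given above. In flox, Kmt2b (-0.21 ± 0.11) and Kdm5b (-0.11 ± 0.09) were not called, and 3 of the 5 calls were left without day 8 replicate 1, day 8 replicate 2 or day 16 replicate 1. With the length trend removed all 7 genes were called in flox too: Kmt2b gave -0.59 (adjusted p = 0.000235), Kdm5b -0.40 (0.000722) and Setd1a -0.58 (0.000198). In KI that setting gave -0.87 for Kmt2b and -0.72 for Kdm5b, against -0.47 and -0.43 without it. Without the 100 most abundant genes Kmt2b was called in flox as well (-0.25, adjusted p = 0.0497). The count of 5 in flox against 7 in KI thus depends on the setting. Cell cycle genes fell at the same time, 12 of 12 in both genotypes, and their summed level went from 3152 to 3190 CPM at day 8 to 354 to 363 CPM at day 16 in flox and from 3966 to 4120 CPM to 271 to 285 CPM in KI. Neuron markers went from 2161 to 2179 CPM to 5201 to 5419 CPM in flox (10 of 12 higher) and from 1392 to 1613 CPM to 9037 to 10038 CPM in KI (11 of 12 higher). The part of these in the falls was not tested.

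Between TE and ExEn cultures, 4 of the 7 genes differed in flox (64.7% of all genes) and 7 of 7 in KI (63.1%). Kdm1a was higher in TE in both, by 0.31 ± 0.05 and 0.35 ± 0.05. Kmt2b was higher by 0.26 ± 0.06 and 0.50 ± 0.06, and Men1 by 0.19 ± 0.07 and 0.49 ± 0.07. The flox call of Men1 (adjusted p = 0.0222) was lost under DESeq2 (0.0518) and without flox TE replicate 1 (0.109), flox ExEn replicate 1 (0.133) or flox ExEn replicate 2 (0.0586). Setd1a was higher by 0.55 ± 0.06 in KI (adjusted p = 1.38e-06) and gave 0.09 ± 0.06 in flox. With the trend of counts on transcript length removed, Setd1a was called in flox (0.46, adjusted p = 1.4e-05) and gave 0.88 in KI, Kmt2b gave 0.81 in flox and 1.02 in KI, and Cxxc1 was called lower in flox (-0.24, adjusted p = 0.0222). Kdm5a was lower in TE, at -0.63 ± 0.06 in flox and -0.38 ± 0.06 in KI, but in that setting the values were 0.01 (adjusted p = 0.929) and 0.26 (0.00176). For Kdm5b, -0.06 ± 0.06 in flox became 0.35 (7.08e-05), while -0.55 ± 0.06 in KI became -0.19 (0.00647). The direction of Kdm5a in both genotypes, and of Kdm5b in flox, thus changed with that correction.

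From E8.5 to E9.5, 2 of the 7 genes were called in control embryos (24.2% of all genes), Setd1a (-0.18 ± 0.06, adjusted p = 0.0415) and Kdm5b (-0.22 ± 0.06, adjusted p = 0.015), both lower. None of these calls was left without E8.5 control replicate 2, and 1 without E8.5 replicate 1 or E9.5 replicate 3. The call of Setd1a was lost with median-of-ratios scaling (0.0541), no filter on low counts (0.0984), reads summed over transcripts (0.0544), without the 100 most abundant genes (0.076) and with only the libraries compared (0.0583). In KI embryos 4 of the 7 were called (32.5%): Kdm5a rose by 0.35 ± 0.09 (0.00401) and Kdm5b by 0.24 ± 0.06 (0.00706), while Men1 (-0.22 ± 0.07, adjusted p = 0.0241) and Setd1a (-0.16 ± 0.06, adjusted p = 0.0488) fell. Of these, 2 were left without KI replicate 2 of either stage. With the length trend removed the rises were smaller and not called, at 0.16 for Kdm5a (adjusted p = 0.111) and 0.13 for Kdm5b (0.114), while Kmt2b was called lower in KI (-0.32, adjusted p = 0.00165) and in controls (-0.21, 0.0301). Setd1a lost its call in KI with no filter on low counts (0.0626), reads summed over transcripts (0.0599) and only the libraries compared (0.0791). Between the same stages neuron markers went from 114 to 129 CPM to 323 to 468 CPM in summed level in controls (9 of 12 called higher) and from 120 to 128 CPM to 130 to 137 CPM in KI (6 higher, 2 lower). Blood markers, with the sums given above, were called higher for 1 of 10 genes in controls and 5 of 10 in KI. The part of these in the changes was not tested.

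**Figure D4:**
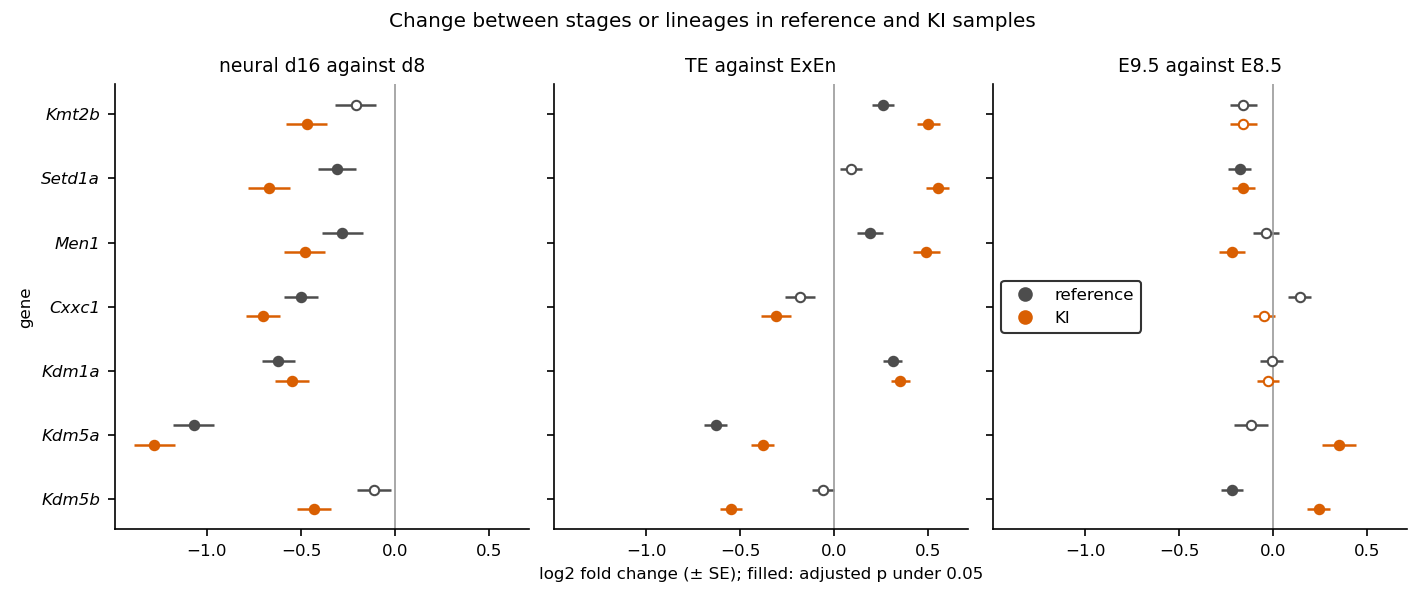
Log2 fold change (points, with SE as bars) between 2 stages or lineages for the 7 genes, in reference samples (grey) and KI samples (orange). Filled points have an adjusted p under 0.05. Kdm5a falls by more than any other of the 7 from neural day 8 to 16, and Kdm5b lies on opposite sides of 0 in control and KI embryos.

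Other genes of the H3K4 machinery were read from lists. Their counts stand beside the share of all genes called in KI, which was 50.9% in TE, 35.5% in ExEn, 46.9% in neurons at day 16, 29.5% at E9.5 and 19.5% at neural day 8, and with so few genes a list they single out no list. Core subunits shared by the MLL1, MLL2, MLL3, MLL4 and SETD1 complexes (Wdr5, Rbbp5, Ash2l and Dpy30) were called higher for 1 and lower for 1 of 4 in TE. There Ash2l rose by 0.62 ± 0.05 (adjusted p = 2.13e-07) and Dpy30 fell (-1.02 ± 0.11, adjusted p = 3.44e-06), and in ExEn the same genes gave 0.34 ± 0.05 and -0.49 ± 0.12, with Wdr5 at -0.19 ± 0.07. In neurons at day 16 Dpy30 was higher (0.39 ± 0.11, adjusted p = 0.0126) and Rbbp5 lower (-0.31 ± 0.10, adjusted p = 0.0255), and the median of the 4 was -0.03. At E9.5 Wdr5 was lower (-0.19 ± 0.06) as the 1 called gene of 4. Medians of the 4 were -0.07 in TE, -0.24 in ExEn and -0.17 at E9.5, beside 0.01, 0.0 and 0.01 over all genes tested. Of 5 partners of MLL1, MLL2 and SETD1, 1 was higher and 3 lower at E9.5, Hcfc1 (-0.35 ± 0.07), Wdr82 (-0.32 ± 0.07) and Psip1 (-0.28 ± 0.07). The same list had 1 higher and 2 lower in TE, 2 lower in ExEn, and 2 higher in neurons at day 16, where Psip1 was at 0.36 ± 0.09 and the median of the 5 was 0.14, against -0.28 at E9.5.

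A list of other KMT2 family and H3K4 methyltransferase genes held Kmt2e, Setd7, Smyd1, Smyd2, Smyd3 and Prdm9, and differences between sample types were not tested for the list. Its counts too stand beside the shares of all genes called, 50.9% in TE, 35.5% in ExEn, 29.5% at E9.5, 46.9% in neurons and 19.5% at neural day 8. In TE 3 of the 6 were lower and 0 higher, among them Setd7 (-0.46 ± 0.06, adjusted p = 1.1e-05). In ExEn 2 were higher and 2 lower, with Setd7 higher (0.41 ± 0.06, adjusted p = 5.69e-05), and the summed level was 368 to 376 CPM in flox and 458 to 473 CPM in KI. At E9.5, 4 were higher and 0 lower, among them Kmt2e (0.55 ± 0.13, adjusted p = 0.0071), and the sum was 223 to 235 CPM in controls and 281 to 303 CPM in KI. In neurons at day 16, 2 were higher and 1 lower. At neural day 8, 1 was lower. Medians of the 6 were -0.21 in TE, 0.19 in ExEn, 0.35 at E9.5, 0.01 at E8.5 and 0.16 in the EB course.

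The LSD1 partner list has 11 genes, and its counts stand beside the same shares of all genes called. Rcor2, a CoREST subunit of LSD1 complexes, was lower in KI in TE (-1.71 ± 0.11, adjusted p = 1.93e-08), ExEn (-0.80 ± 0.12, 0.000158) and neurons at day 16 (-1.05 ± 0.11, 1.82e-05), although Kdm1a itself was called in none of the 7 KI comparisons. In these 3 comparisons 5, 4 and 5 of the 11 were lower and 1 was higher in each, beside 1 higher at neural day 8, and 1 higher and 2 lower at E9.5. Among the other H3K4 demethylase genes Kdm1b, which encodes LSD2, rose in TE (1.12 ± 0.15, adjusted p = 2.79e-05), ExEn (0.53 ± 0.16, 0.0192) and neurons (0.43 ± 0.09, 0.00234), and fell at E9.5 (-0.61 ± 0.14, 0.00217). Kdm5c rose by 0.18 ± 0.06 in TE and fell (-0.35 ± 0.06) in ExEn. Kmt2d, the gene of MLL4, was higher in KI in TE (0.35 ± 0.06, 0.000145), lower in ExEn (-0.20 ± 0.06, 0.0155) and uncalled elsewhere, and Kmt2c rose in TE (0.52 ± 0.13, 0.00518) and at E9.5 (0.34 ± 0.10, 0.0162). These reads do not test the alleles, because the tables do not separate the altered exons.

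In their pattern over the 18 groups, Setd1a and Kmt2b resembled each other most among the 7 genes (Pearson's r of log2 (mean CPM + 1) over groups 0.87), followed by Kmt2b and Kdm1a (0.84). Neither KDM5 gene had a value above 0.48 with another of the 7, and Setd1a gave 0.00 with both. Over 12145 genes the most alike were Zfp473 (0.94) for Kmt2b, Ndor1 (0.95) for Setd1a, Plekhj1 (0.93) for Men1, Ppp1r14b (0.97) for Cxxc1, Vps54 (0.93) for Kdm1a, Eloa (0.94) for Kdm5a and Rpp25 (0.89) for Kdm5b. The 18 groups share lines and span both RNA labels, so these values describe the groups only.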

How the data were processed

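RNA was sequenced from mouse cultures and embryos, and 37 libraries were grouped by their labels. Per the labels' protocols poly(A) RNA was selected, while the molecule is labelled polyA RNA for ESC, EB and neural libraries and total RNA for TE, ExEn and embryo libraries. No test crosses that division, but the order of levels and the likeness between genes do. For each of 29082 RefSeq transcripts the authors deposited a whole-number read count beside RPKM, per the file headers. The submitters' processing notes name STAR, Bowtie2 and build mm9. The counter, annotation version and use of strand are not given in the sources used here, so reads of overlapping antisense genes cannot be told apart. RPKM equals the deposited count over 1 length per transcript and 1 denominator per library (largest relative deviation 6.2e-12), and it was used only to compare genes. Symbols were matched for 28436 accessions, and 646 stayed unnamed. Of a gene's transcripts, the one with most reads was used. Men1 has 4, and the others had 0.8972 to 0.9521 times the reads of the one used.

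Counts were tested with edgeR 4.0.16 in R 4.3.3 (filterByExpr, TMM, glmQLFit with robust estimation, glmQLFTest, Benjamini-Hochberg over all genes), in 1 fit per set: neural, TE with ExEn, embryos, EB course with day as a factor, and KI libraries of the course. In these fits groups share the estimate of spread. All 7 genes passed the filter in each fit. Intervals use the fit's degrees of freedom. The fits were tested on simulated data with known changes. These changes were larger than any KI effect called here, so the simulation does not cover effects of that size. Named are the listed genes, and per other list up to 3 called genes of largest change, plus Kmt2c and Kmt2d. Likeness is Pearson's r of log2(mean CPM + 1) among genes with at least 5 CPM. For single EB days 0.5 CPM was added. The members and lists were chosen with earlier results of these data known.

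Replicate pairs differed by more than sampling noise (chi-square per degree of freedom 1.5 to 54.8 in 23 pairs). The flox pair at neural day 8 was the closest (1.5), followed by those of ExEn (2.76) and TE (3.99), so replication in these pairs may be overstated. The KI pairs of ExEn and TE gave 10.8 and 9.68. The shared spread in the fit of TE with ExEn rests on flox and KI pairs alike, so it may be too low. P-values measure the spread between these samples, which may be technical where cultures were not separate. At E8.5 embryos that share a title number deviated together (correlations 0.33, 0.37 and 0.15), so the number may pair them there. In the pair with 0.37 both embryos had Y-linked reads, and embryos of different numbers were not correlated for comparison. KI clones are the same cell lines on each day and in each lineage. Reads were counted with no molecular identifiers, so counting error is only part of the error. DESeq2 1.42.0 and the other alternatives are given in the closing section.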

Additional observations from a re-analysis of the deposited data

Results flagged for a closer look

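The KI effect differed between TE and ExEn cultures for 5 genes, by the interaction test given above. The difference in log2 fold change, TE minus ExEn, was 0.24 for Kmt2b, 0.46 for Setd1a, 0.29 for Men1, 0.25 for Kdm5a and -0.49 for Kdm5b. In embryos it differed between E9.5 and E8.5 for Kdm5a (0.48) and Kdm5b (0.46). In embryos the 2 stages share no samples, and 1 E9.5 control but no E9.5 KI embryo had Y-linked reads. No group of 4 or more libraries exists, so single libraries were not tested as outliers.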

How the results depend on the processing

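Of 1652 estimates for the 7 genes under alternatives (settings and libraries left out), 1477 kept their direction and their side of the threshold, 85 lost a call and 22 gained one. In 68 the sign changed. Of these, 3 were called in either fit, all with the trend on transcript length removed and all for TE against ExEn: Kdm5a in flox (0.01), Kdm5a in KI (0.26) and Kdm5b in flox (0.35). The other 65, between -0.23 and 0.20, were uncalled in both fits. The cause was not tested.

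Further sign changes with the length trend removed were Kdm1a in the difference between TE and ExEn (-0.00), Kdm5a for EB day 4 against stem cells (-0.18), Kdm5b for EB day 10 against day 4 (-0.23), Kmt2b at E9.5 (-0.03), Setd1a in the difference between E9.5 and E8.5 (-0.04) and Setd1a in ExEn (0.02). The Setd1a difference between E9.5 and E8.5 was -0.00 with DESeq2 or median-of-ratios scaling, and -0.01 with no filter on low counts or without the 100 most abundant genes. Kdm1a for E9.5 against E8.5 in controls was 0.00, 0.00, 0.02 and 0.02 in these settings, and 0.01 with only the libraries compared, where Kdm1a in neurons at day 16 was -0.01. Kdm5a at neural day 8 was 0.01 with DESeq2 and with median-of-ratios scaling.

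With libraries left out in turn, the sign changed within these ranges. At neural day 8 Kdm1a gave -0.01 to 0.03 and Kdm5b -0.04 to 0.07, and at day 16 Kmt2b gave -0.12 to 0.03 and Men1 -0.18 to 0.07. In ExEn Setd1a gave -0.05 to 0.00. The difference between TE and ExEn was -0.02 to 0.07 for Kdm1a, and TE against ExEn in flox was -0.11 to 0.01 for Kdm5b. At E8.5 Kdm1a gave -0.04 to 0.03, Kmt2b -0.04 to 0.09 and Setd1a -0.08 to 0.01. At E9.5 they gave -0.07 to 0.03, -0.01 to 0.05 and -0.06 to 0.01, and for the difference of these stages -0.07 to 0.02, -0.07 to 0.06 and -0.04 to 0.05. E9.5 against E8.5 for Kdm1a was -0.06 to 0.03 in controls and -0.08 to 0.01 in KI. The EB course gave -0.06 to 0.21 for Kdm1a, -0.32 to 0.20 for Kdm5b and -0.09 to 0.15 for Men1, and EB day 10 against day 4 gave -0.12 to 0.23 for Kdm5b.

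Counts of called genes among the 7 moved by over 1.5 times as follows. For neurons at day 16 the count was 2 in place of 1 with the length trend removed, and 0 to 2 with a library left out. The difference between neural days gave 1 with median-of-ratios scaling, 2 with DESeq2 and 1 with the length trend removed, in place of 0, and 0 to 2 with a library left out. For the difference between TE and ExEn, DESeq2 and no filter on low counts each gave 3 in place of 5, and libraries left out 2 to 5. The difference between E9.5 and E8.5 gave 1 in place of 2 with the length trend removed, and 1 to 2 with an embryo left out. E9.5 against E8.5 in controls gave 1 in place of 2 with median-of-ratios scaling, no filter on low counts, the sum over transcripts, without the 100 most abundant genes and with only the libraries compared, and 0 to 2 with an embryo left out. In KI embryos it was 2 to 5 in place of 4, for neural day 16 against day 8 in flox 3 to 5 in place of 5 (7 with the length trend removed), and for EB day 4 against stem cells in KI 0 to 3 in place of 4. Where a group is left with 1 library, it is assumed to vary like the other groups.

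With the replicate block (title number in embryos, clone or replicate number elsewhere) the count of called genes was as without it in each of the 11 comparisons in which it was fitted (not KI against flox within 1 culture, the EB course or E9.5 against E8.5 within a genotype), among them 0 at E8.5, 3 at E9.5, 2 for their difference, 5 for the difference between TE and ExEn and 0 for that between neural days. Kmt2b in the difference between E9.5 and E8.5 changed sign under the block, to 0.00. Title numbers at E9.5 (correlations -0.02 to 0.20) and flox numbers in TE and ExEn (-0.02) are shared numbers only. For single EB days, adding 0.1 or 1 CPM or asking for 1.5-fold left the count at 0 on each day. The 7 genes had at least 1264 reads in each library.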
